A study of Arabidopsis thaliana with 12 samples.

Results

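Wounded rosettes of Arabidopsis thaliana kept in the light were compared with intact rosettes kept in the dark, on 6 of the 12 Affymetrix arrays of a factorial study of wounding and light. The 6 arrays were chosen by their labels, 3 light wounded and 3 dark intact, and were paired by replicate number. Light wounded rosettes stood in the light (PAR, the photosynthetically active radiation, of 250 µmol m-2 s-1) for 30 min, had their leaves crushed at the widest part, at right angles to the midvein, with a metal haemostat, and were harvested after 60 min more in that light. Dark intact rosettes, titled dark controls, stayed in darkness for the same 30 min and 60 min and were not wounded. Dark wounded rosettes were crushed under a safelight and kept in darkness, and light intact rosettes stayed in the light unwounded. Those groups, of 3 arrays each, hold the opposite pairing of the treatments and served as a separate comparison. All plants were grown on agar with sucrose and then in compost and sand, treated in cabinets at 22 °C, and each array carried 1 RNA extract pooled from 15 to 17 plants. The labels give no ecotype or genotype. Without plants sampled ahead of the treatments, and with darkness starting 30 min before the wounding hour, a level that was higher in the light cannot be told from one that was lower in the dark.

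Crushing a leaf sets off waves of calcium and electrical signals and the making of jasmonates, oxylipin hormones that are bound by a receptor complex and lead to the release of MYC transcription factors from their repressors. Within an hour, transcripts of calcium sensors, of ERF and zinc finger transcription factors, and of enzymes that make and break down jasmonates are known to accumulate in wounded leaves. Taking light away from a leaf stops photosynthesis, and the resulting shortage of sugar is sensed by the kinase SnRK1, which is known for switching on genes for the breakdown of amino acids and lipids and for autophagy. The comparison sets these 2 responses against each other, since the light wounded rosettes carried a wound and had light, and the dark intact rosettes had neither.

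Values are log2 GCRMA intensities, and a difference is the light wounded mean minus the dark intact mean, on the log2 scale, with its standard error from limma. Tests covered 13567 of 22810 probe sets, those that reached a log2 value of 4 on 3 or more arrays. The third highest value was 4.00 for the faintest probe set kept and 3.999 for the brightest one left out. Array medians lay between 5.4 and 5.60, and the median difference over all tested probe sets was -0.03. The 3 leaf mesophyll markers that could be read were bright in both groups. Rubisco activase (RCA) stood at 15.14, 15.16 and 15.25 in light wounded and at 15.13, 15.13 and 15.24 in dark intact rosettes, photosystem I subunit PSAE-1 between 14.73 and 14.99 on all 6 arrays, and the antenna protein LHCB4.2 between 14.19 and 14.83. The root marker PYK10 read 8.25 to 9.33 in light wounded and 6.70 to 8.30 in dark intact rosettes. In whole rosettes, fewer cells of a type and less RNA per cell cannot be told apart.

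The groups also differed in properties of the arrays. The control probe set for 25S ribosomal RNA read 7.27, 8.46 and 6.34 in light wounded rosettes, against 9.37, 10.67 and 8.82 in dark intact ones, without overlap (a difference of -2.26). The 3 dark intact arrays were the least alike of any group, with r between 0.966 and 0.969 across probe sets and 1049 to 1091 probe sets at least 2-fold apart, against 0.983 to 0.984 and 392 to 450 in light wounded rosettes. The ratio of the 3′ to the 5′ probe set of the GAPDH control overlapped, at 1.67, 1.81 and 1.57 (log2) in light wounded and 1.82, 1.67 and 1.70 in dark intact rosettes. The 25S signal thus moved with the groups in every light wounded minus dark intact result below, and its part in them was not tested. In dark wounded and light intact rosettes it overlapped, with means of 7.57 and 7.27. With the 25S value as a covariate, an alternative chosen after seeing the data, 2046 probe sets were called instead of the 5671 given next, 2037 of them in common, the median standard error became 0.27 instead of 0.15, and all 5671 differences kept their sign.

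Light wounded and dark intact rosettes differed in a large part of the measured transcripts. At a Benjamini-Hochberg adjusted p under 0.05 in limma, 5671 of 13567 probe sets (41.8%) were called. Of these, 2642 (19.5%) were higher and 3029 (22.3%) were lower in light wounded rosettes, and 1119 and 957 of them changed at least 2-fold. The 3 arrays of one group did not overlap with the 3 of the other for 40.5% of tested probe sets, and for 4604 of the called ones. The far ends of the distribution were uneven: 49 probe sets were higher by at least 4 on the log2 scale and 11 were lower by as much. Without the replicate number as a block, the fit called 3546.

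The opposite pairing, dark wounded minus light intact, was fitted beside it and used the other 6 arrays. The comparisons share no array, although they share the 3 replicate experiments and the estimate of the spread. A transcript that follows the wound has the same sign in both, and one that follows the light or the dark has opposite signs. Dark wounded minus light intact called 6746 probe sets (49.7%), of which 2658 (19.6%) were higher and 4088 (30.1%) were lower, with a median difference of -0.13 over all tested probe sets.

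Set together, the 2642 probe sets that were higher in light wounded rosettes were split unevenly. Of these, 772 (29.2%) were also higher in dark wounded than in light intact rosettes, 1273 (48.2%) were lower there, and 597 (22.6%) were not called. The order of the first 2 parts depended on the fit: without the replicate block 578 were higher and 503 lower in the opposite pairing, and with the 25S covariate 378 and 346. Of the 3029 lower ones, 362 (12%) were lower in both comparisons, 1001 (33.0%) were higher in dark wounded than in light intact rosettes, and 1666 (55.0%) were not called there. The balance changed with size. Among the 1119 that were at least 2-fold higher, 555 were higher and 359 lower in the opposite pairing, and among the 49 that were higher by at least 4 on the log2 scale, 38 were higher and 8 lower. Among the 957 that were at least 2-fold lower, 114 were lower and 538 higher in the opposite pairing, and among the 62 that were lower by at least 3 on the log2 scale, 5 were lower and 46 higher. Most of the largest rises were thus higher in both comparisons, and most of the largest falls had opposite signs in them.

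**Figure D1:**
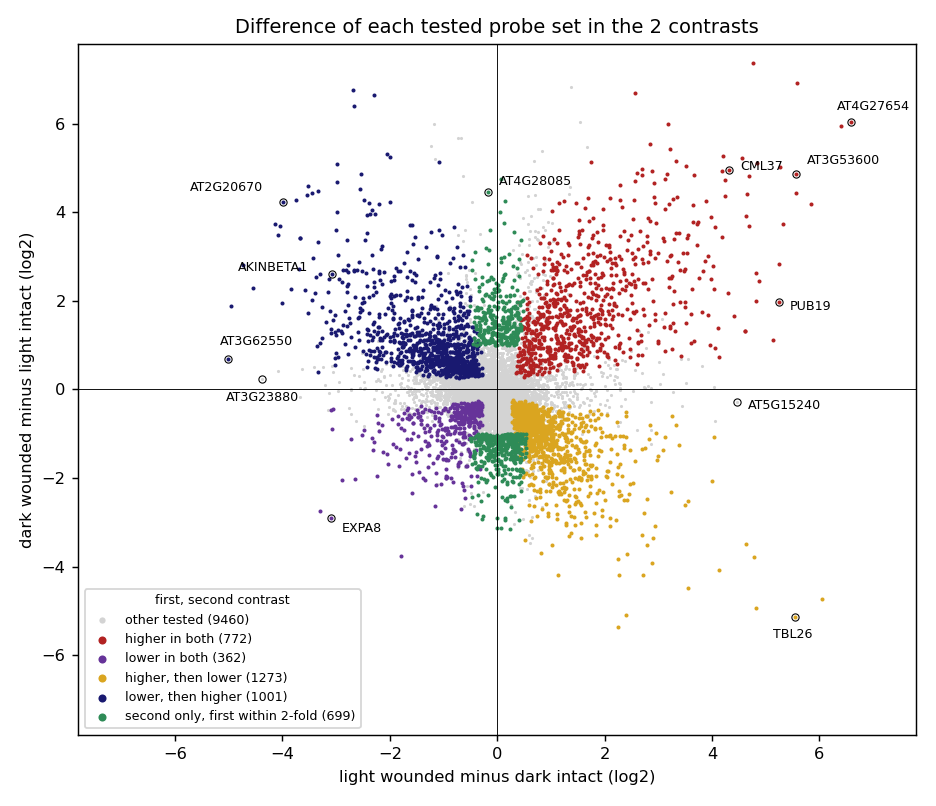
Each dot is 1 of 13567 tested probe sets, placed by light wounded minus dark intact (horizontal axis, log2) and by dark wounded minus light intact (vertical axis, log2), which use different arrays. Colours mark the 772 probe sets called higher in both, the 362 called lower in both, the 1273 higher in the first and lower in the second, the 1001 lower in the first and higher in the second, and the 699 that changed at least 2-fold in the second while the 95% interval of the first lay within 2-fold.

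The 12 largest rises among named genes, chosen from probe sets whose arrays did not overlap, were led by AT4G27654, AT5G52050, AT2G14290 and the listed stress regulator AT3G53600. For loci shown without a symbol, the annotation used here holds no name. AT4G27654 read 10.26, 10.11 and 9.87 in light wounded rosettes, against 3.05, 3.96 and 3.45 in dark intact ones. The groups lay far apart, with all dark intact values below the brightness threshold of log2 4. The difference was 6.60 ± 0.20 (adjusted p = 3.04e-07), which is at least 67.7-fold when the dark intact level is set to that threshold. AT5G52050 had values of 10.0, 9.39 and 9.54 in light wounded rosettes, against 2.79, 3.16 and 3.79 in dark intact ones (6.40 ± 0.37, adjusted p = 3.57e-06, at least 50.0-fold). AT5G38700 showed the tightest groups of the 12, with 8.09, 8.11 and 8.25 in light wounded rosettes, against 2.81, 2.83 and 2.85 in dark intact ones (5.32 ± 0.12, adjusted p = 5.78e-08). Differences for the others in this set were 5.84 for AT2G14290, 5.57 for AT3G53600, 5.54 for TBL26, 5.26 for AT1G19210, 5.25 for PUB19, 5.24 for AT4G33905, 5.14 for AT4G10390, and 4.82 each for CCR2, a cinnamoyl-CoA reductase of lignin monomer synthesis, and AT4G36010. In 7 of the 12 the dark intact mean lay below log2 4, where size and rank are those of the deposited values. Of these, AT4G27654, AT2G14290, AT5G38700, AT4G33905, AT3G53600 and AT1G19210 had no dark intact or light intact array above log2 4. They passed the brightness filter only through wounded arrays, so they were tested only because they were high there. The narrow dark intact spread of AT5G38700 lies in that background range. By their values in the opposite pairing, 11 of the 12 were higher in both, and TBL26 was higher here and lower there.

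**Figure D2:**
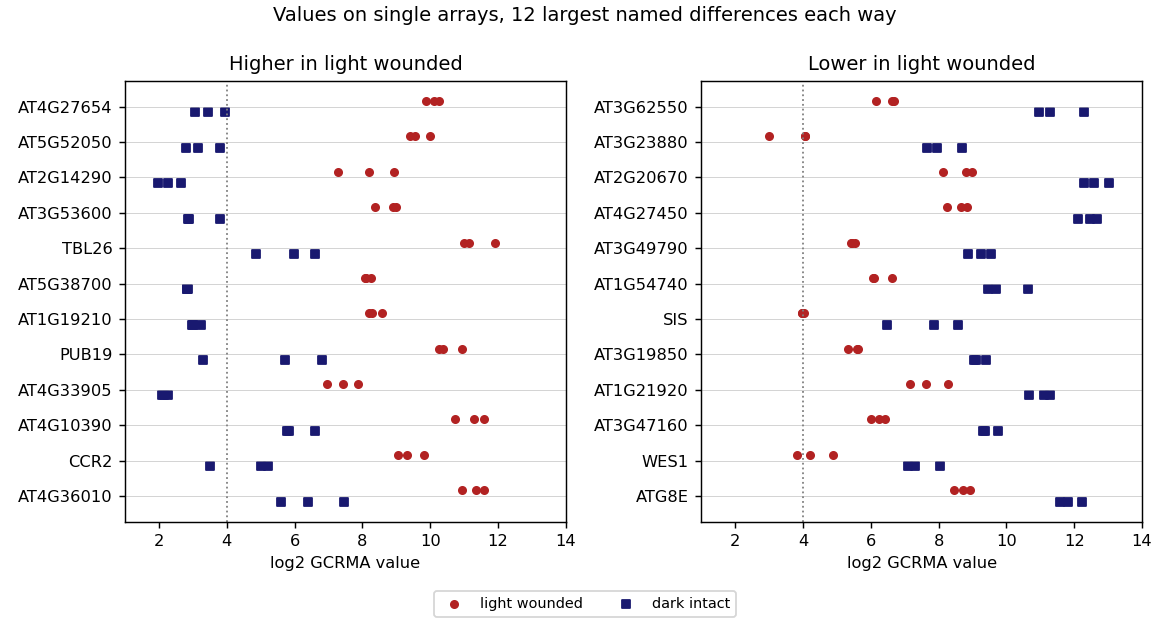
The log2 GCRMA values of single arrays are shown for the 12 named genes with the largest rises (left) and the 12 with the largest falls (right) in light wounded rosettes, with light wounded arrays as red circles and dark intact arrays as blue squares. The dotted line marks log2 4, and in 7 of the rises and 2 of the falls the mean of the lower group lay below it.

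The 12 largest falls were led by AT3G62550, which read 6.16, 6.69 and 6.62 in light wounded rosettes, against 11.30, 12.28 and 10.96 in dark intact ones. Every dark intact array was above every light wounded one, by over 4 on the log2 scale. The difference was -5.02 ± 0.25 (adjusted p = 2.22e-06), a level 32.5-fold lower. AT3G23880 followed at -4.39 ± 0.20, with 3.0, 4.05 and 4.07 in light wounded rosettes, against 7.65, 7.94 and 8.68 in dark intact ones. Then came AT2G20670 (-3.98), AT4G27450 (-3.83), AT3G49790 (-3.76), AT1G54740 (-3.67), SIS, a serine-rich protein named for its induction by salt (-3.67), AT3G19850 (-3.67), AT1G21920 (-3.33), AT3G47160 (-3.26), WES1 (-3.18) and ATG8E (-3.16). Of these 12, 10 were higher in dark wounded than in light intact rosettes, and AT3G23880 and AT3G19850 were not called there. In 2 of the 12 the light wounded mean lay below log2 4.

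Transcripts that were higher in both comparisons numbered 772 probe sets, of which 403 had a named gene, and 474 rose at least 2-fold in both. Their median difference was 1.5 here and 1.67 in dark wounded minus light intact. All 5 tested genes of the 20 listed rapid wound and stress regulators rose, against 19.5% of all tested probe sets, with a median of 4.77. This list, like the other gene lists, was drawn up with earlier results of these arrays known, so its direction is not independent evidence. AT3G53600 read 9.0, 8.89 and 8.36 in light wounded rosettes, against 2.87, 3.81 and 2.87 in dark intact ones (5.57 ± 0.29, adjusted p = 2.64e-06, at least 26.9-fold). AT1G19210, listed as the ERF family transcription factor ERF17, read 8.56, 8.18 and 8.27 in light wounded rosettes, against 3.01, 2.97 and 3.25 in dark intact ones (5.26 ± 0.27). Neither gene had a dark intact or light intact array above log2 4. Both passed the brightness filter only through wounded arrays, so they were tested only because they were high there.

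AT1G22810, listed as ERF19, behaved less evenly. It read 9.83, 9.93 and 9.45 in light wounded rosettes, against 2.43, 6.31 and 6.17 in dark intact ones, so that the difference was 7.40 in experiment 1 and 3.62 and 3.28 in experiments 2 and 3 (4.77 ± 0.74, adjusted p = 8.37e-04). Light intact arrays were all low, at 2.42, 2.16 and 3.13. The jasmonate-responsive ERF factor ORA47 rose by 2.85 ± 0.37 (10.64, 9.87 and 9.98 in light wounded rosettes, against 7.0, 7.38 and 7.56 in dark intact ones). The zinc finger repressor STZ rose by 2.09 ± 0.42 (adjusted p = 0.00323), at 12.43, 12.32 and 12.27 in light wounded rosettes, against 9.04, 10.82 and 10.92 in dark intact ones. With the 25S covariate STZ stood at 2.02 and was not called (adjusted p = 0.123), while the other 4 regulators remained called.

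The low first array of AT1G22810 and STZ was shared by many of these transcripts. Dark intact replicate 1 was the lowest of the 3 dark intact arrays for 564 of the 772 (73.1%), against 28.3% of all tested probe sets. That share was 54.3% for transcripts higher in the dark and 11.6% for those higher in the light, both described below. In AT1G22810 and STZ replicate 1 lay within the light intact range (2.16 to 3.13 and 9.03 to 9.87), and replicates 2 and 3 lay above it. The median difference of the 772 was 1.92, 1.37 and 1.11 in experiments 1, 2 and 3, and 768 had the same sign in all 3. With experiment 1 left out, an alternative also chosen after seeing the data, 566 probe sets were higher in both comparisons.

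Calcium sensors were mixed. Of 12 tested calmodulin-like genes 5 rose and 1 fell, with a median of 0.41, where 19.5% of all tested probe sets rose and 22.3% fell, and the 5 that rose were all higher in both comparisons. CML37 read 9.63, 9.52 and 9.15 in light wounded rosettes, against 3.65, 5.80 and 5.89 in dark intact ones (4.32 ± 0.53, adjusted p = 1.93e-04). AT1G76640, listed as CML39, read 8.83, 8.53 and 6.77 in light wounded rosettes, against 4.05, 3.08 and 3.14 in dark intact ones (4.62 ± 0.38, at least 16.5-fold). The groups were apart for both genes, and CML37 had its lowest dark intact value in experiment 1. CML38 (2.57 ± 0.53), CML23 (1.1 ± 0.22) and CML41 (0.76 ± 0.13) rose less. CML30 was the one that fell, at 4.25, 4.93 and 5.11 in light wounded rosettes, against 6.85, 6.45 and 6.27 in dark intact ones (-1.76 ± 0.29), and it was higher in dark wounded than in light intact rosettes. With the 25S covariate the calls of CML38 (2.51, adjusted p = 0.129), CML41 (0.81, adjusted p = 0.0598) and CML30 (-1.42, adjusted p = 0.111) were lost, and CML23 was lost without experiment 1 (0.93, adjusted p = 0.0556).

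The list of U-box and ATL ubiquitin ligases, families of which many members act in the turnover of immune and stress regulators, had 6 tested genes. Of these, 5 rose, against 19.5% of all tested probe sets, with a median of 1.95. Of all 8 tested genes with a PUB name, looked at after values were seen, 5 were called higher, PUB43 among them, and 3 were not called. PUB19 read 10.94, 10.26 and 10.37 in light wounded rosettes, against 3.3, 5.71 and 6.82 in dark intact ones (5.25 ± 0.70, adjusted p = 3.29e-04, 38.0-fold). Differences by experiment were 7.64, 4.55 and 3.55, again with the largest in experiment 1. PUB22 (3.17 ± 0.34), PUB23 (1.96 ± 0.25) and AT1G20823, listed as ATL80 (1.94 ± 0.21), rose too. PUB24 rose as well (1.1 ± 0.30), but the call was lost on leaving out light wounded replicate 1 (adjusted p = 0.0614) or 2 (adjusted p = 0.0513) and with the 25S covariate (adjusted p = 0.215). PUB26 read 5.47 to 5.98 in light wounded and 5.45 to 6.45 in dark intact rosettes and was not called (-0.11, 95% interval -0.50 to 0.28).

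OPCL1, a peroxisomal CoA ligase that works in jasmonate synthesis, was the 1 gene tested of 15 on the biosynthesis list and read 12.87, 13.07 and 12.15 in light wounded rosettes, against 9.42, 11.02 and 9.63 in dark intact ones (2.68 ± 0.28, adjusted p = 7.42e-05). Its lowest light wounded array was above its highest dark intact array. The list of jasmonate catabolism and conjugation had 4 tested genes, and all 4 rose, against 19.5% of all tested probe sets, with a median of 1.71. AT2G38240, listed as the jasmonate oxidase JOX4, read 10.80, 10.51 and 9.40 in light wounded rosettes, against 8.03, 7.68 and 8.45 in dark intact ones (2.19 ± 0.33). AT5G05600, listed as JOX2, rose by 1.73 ± 0.28 and JRG21 by 1.61 ± 0.33. All of these were higher in both comparisons. JMT, which methylates jasmonate, was the exception: it read 7.88, 8.16 and 7.65 in light wounded rosettes, against 7.02, 5.73 and 5.85 in dark intact ones (1.70 ± 0.28), and was not called in dark wounded minus light intact (-0.63, adjusted p = 0.0913). JRG21 lost its call without experiment 1 (1.46, adjusted p = 0.0573), and with the 25S covariate it did so too (1.44, adjusted p = 0.163), as did AT5G05600 (1.84, adjusted p = 0.050).

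Of the jasmonate signalling list 3 genes were tested and 1 rose, where 19.5% of all tested probe sets rose. GRX480, a glutaredoxin that binds TGA factors, read 11.41, 11.38 and 11.22 in light wounded rosettes, against 6.66, 8.64 and 8.33 in dark intact ones (3.46 ± 0.51, adjusted p = 6.31e-04). The factors MYC3 (0.25, 95% interval -0.11 to 0.60) and MYC4 (0.24, -0.02 to 0.51), which drive jasmonate-responsive transcription, were not called. Among the 3 tested genes of the WRKY list, WRKY53 was called (0.85 ± 0.28, adjusted p = 0.0370) on arrays that overlapped, 9.84, 9.90 and 10.61 in light wounded against 8.57, 9.36 and 9.88 in dark intact rosettes. That call was lost when any of 8 arrays was left out, with an adjusted p of 0.153 and a difference of 0.50 without dark intact replicate 1. WRKY6 (0.39 ± 0.36, adjusted p = 0.415) and WRKY22 were not called, and WRKY22 is described with its levels in all groups further on. Of all 5 tested genes with a WRKY name, looked at after values were seen, 1 was called higher and 2 lower. All tested probe sets were called higher in 19.5% and lower in 22.3% of cases. WRKY47, 1 of the 2 that were lower, kept its call under every alternative run.

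Cold and dehydration genes, whose products protect cells that lose water, rose in 4 of 4 tested cases, against 19.5% of all tested probe sets, but belonged to different kinds. The dehydrins LTI30 and COR47 were higher in both comparisons. LTI30 read 12.25, 11.99 and 11.89 in light wounded rosettes, against 9.36, 10.09 and 10.43 in dark intact ones (2.08 ± 0.30), and COR47 rose by 0.64 ± 0.14. The chloroplast proteins COR15A and COR15B were higher here and lower in dark wounded than in light intact rosettes. COR15A read 12.97, 13.05 and 12.74 in light wounded rosettes, against 11.53, 11.34 and 11.36 in dark intact ones (1.51 ± 0.13, adjusted p = 2.40e-05), and COR15B rose by 1.4 ± 0.25. With the 25S covariate COR47 (adjusted p = 0.0664) and COR15B (adjusted p = 0.0618) were no longer called, and COR47 was not called without experiment 1 (0.50, adjusted p = 0.0669).

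Transcripts that were lower in both comparisons were fewer and changed less: 362 probe sets, 184 with a named gene and 55 at least 2-fold lower in both, with medians of -0.73 here and -0.72 in dark wounded minus light intact. The cell wall loosening expansin EXPA8 led them. It read 4.54, 5.16 and 5.14 in light wounded rosettes, against 7.48, 8.33 and 8.30 in dark intact ones. Dark wounded and light intact rosettes were apart as well, at 4.51, 5.99 and 5.84 against 7.69, 8.97 and 8.36. The differences were -3.09 ± 0.18 (adjusted p = 3.34e-06) and -2.90 ± 0.18. AT5G20110 (-1.83 and -1.72), AT3G62630 (-1.65 and -1.44), AT2G36970 (-1.59 and -2.33), AT3G22970 (-1.58 and -1.91) and AT2G03310 (-1.38 and -2.0) followed in the 2 comparisons. The call of AT2G36970 was lost without experiment 1 (-1.01, adjusted p = 0.0712) and with the 25S covariate (-1.06, adjusted p = 0.312). PORB, which makes chlorophyllide in the light, fell by 1.48 ± 0.23 here, at 10.03, 9.29 and 8.80 in light wounded against 11.40, 11.17 and 9.99 in dark intact rosettes, and its groups overlapped by the lowest dark intact array. With the 25S covariate it stood at -1.47 and was not called (adjusted p = 0.0558).

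Transcripts that were higher in the light numbered 1273 probe sets (503 without the replicate block, 346 with the 25S covariate), 634 of them with a named gene and 273 at least 2-fold apart in both comparisons. Their medians were 0.71 in light wounded minus dark intact and -0.89 in dark wounded minus light intact. TBL26, whose family (TRICHOME BIREFRINGENCE-LIKE) acetylates cell wall polymers, read 11.01, 11.92 and 11.14 in light wounded rosettes, against 6.59, 4.87 and 5.99 in dark intact ones (5.54 ± 0.53, adjusted p = 4.98e-05, 46.5-fold). Dark wounded rosettes were as low as dark intact ones, at 7.43, 5.88 and 5.43, and light intact rosettes as high as light wounded ones, at 11.23, 12.02 and 10.88. The same pattern with opposite signs held for AT2G27420 (4.82 and -4.94), AT2G44940 (4.13 and -4.08), AT5G42760 (3.56 and -4.49), CSLA01, a cellulose synthase-like protein of mannan synthesis (2.94 and -3.09), and AT1G23205 (2.90 and -3.36). All but TBL26 among these 6 had a dark intact mean below log2 4, and AT1G23205 passed the brightness filter only through light arrays.

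All 3 tested genes of the 20 on the light signalling list belonged here, against 1273 of 13567 tested probe sets. The cryptochrome inhibitors AT3G52740 (listed as BIC1) and AT3G44450 (BIC2) hold blue light photoreceptors in their inactive form. AT3G52740 read 8.11, 8.67 and 8.45 in light wounded rosettes, against 5.39, 4.68 and 6.54 in dark intact ones (2.88 ± 0.37, adjusted p = 2.56e-04), and AT3G44450 read 10.13, 11.03 and 10.71 in light wounded rosettes, against 8.88, 8.25 and 7.52 in dark intact ones (2.40 ± 0.33). Both were farther apart in dark wounded minus light intact, at -3.91 and -5.09. HYH, a bZIP factor of light signalling, rose by 1.84 ± 0.26 and was lost with the 25S covariate (1.52, adjusted p = 0.0621). The clock protein GI read 7.50, 7.77 and 8.24 in light wounded rosettes, against 5.61, 5.59 and 5.51 in dark intact ones (2.27 ± 0.25). The flavonol glycosyltransferases UGT78D1 (1.39 ± 0.19) and UGT78D2 (1.19 ± 0.15) rose and were lower in dark wounded than in light intact rosettes, while DFR, an enzyme of anthocyanin synthesis, was not called (-0.46, 95% interval -0.93 to 0.01).

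Transcripts that were higher in the dark numbered 1001 probe sets, 558 with a named gene and 320 at least 2-fold apart in both comparisons, with medians of -1.06 in light wounded minus dark intact and 0.87 in dark wounded minus light intact. All 7 tested genes of the dark and sugar starvation list fell, against 22.3% of all tested probe sets. All 7 were higher in dark wounded than in light intact rosettes, against 19.6% of all tested probe sets. The list was drawn up with earlier results of these arrays known, so its direction is not independent evidence. AT2G20670 read 8.99, 8.13 and 8.81 in light wounded rosettes, against 12.57, 12.29 and 13.01 in dark intact ones (-3.98 ± 0.23, adjusted p = 3.34e-06, 15.8-fold lower). The SnRK1 subunit gene AKINBETA1 read 8.16, 8.55 and 8.29 in light wounded rosettes, against 11.13, 11.68 and 11.45 in dark intact ones (-3.09 ± 0.17, adjusted p = 3.03e-06). In both genes dark wounded arrays lay near the dark intact ones, at 11.99 to 12.71 and at 10.55 to 11.23.

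Leucine breakdown in mitochondria was represented by 3 genes that fell together. MCCA, a subunit of methylcrotonyl-CoA carboxylase, read 7.48, 7.12 and 7.31 in light wounded rosettes, against 9.70, 10.27 and 9.48 in dark intact ones (-2.51 ± 0.18), its partner subunit MCCB fell by 1.19 ± 0.10, and isovaleryl-CoA dehydrogenase (IVD) fell by 1.95 ± 0.14. None of the 3 had overlapping groups, where 40.5% of all tested probe sets did not overlap, and each kept its call in every alternative that was run. AT3G15450 fell by 2.0 ± 0.36, a call lost with the 25S covariate (-1.52, adjusted p = 0.156). BZIP53, a transcription factor of amino acid catabolism in starved cells, was the weakest, at 11.13, 10.84 and 10.84 in light wounded against 11.06, 11.73 and 11.71 in dark intact rosettes (-0.56 ± 0.19, adjusted p = 0.0372). It did not fall in experiment 1, where the difference was 0.08, and the call was lost when any of 5 arrays was left out, with an adjusted p of up to 0.153.

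**Figure D3:**
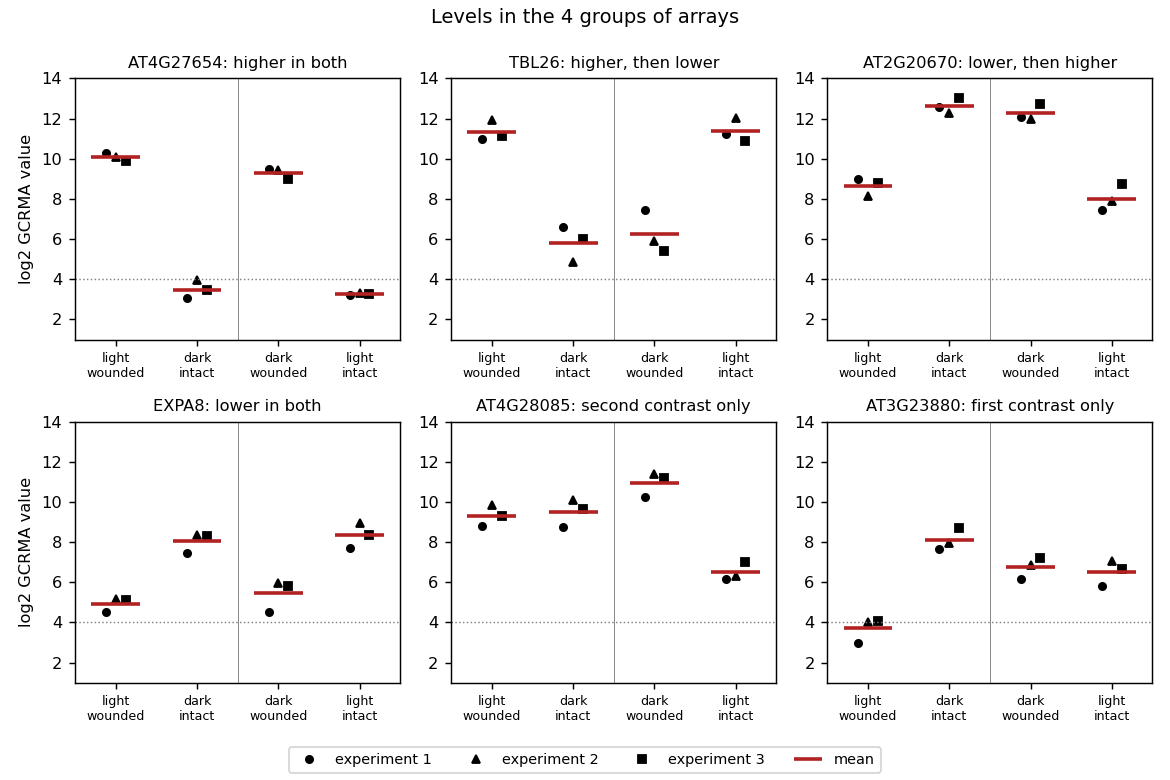
Log2 GCRMA values of single arrays in the 4 groups are shown for 6 genes, with a symbol for each replicate experiment, a red line at the mean of 3 arrays and a dotted line at log2 4. AT4G27654 and EXPA8 follow the wound in both pairings, TBL26 is higher in the light and AT2G20670 is higher in the dark. AT4G28085 differs between dark wounded and light intact rosettes, and AT3G23880 differs between light wounded and dark intact rosettes.

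Autophagy genes, which encode the machinery that encloses cell contents for breakdown, fell in 8 of 11 tested cases and rose in 0, against 22.3% lower and 19.5% higher of all tested probe sets, with a median of -0.63. ATG8E, a ubiquitin-like protein that is fixed to the growing membrane, read 8.47, 8.92 and 8.73 in light wounded rosettes, against 11.57, 12.22 and 11.81 in dark intact ones (-3.16 ± 0.18, adjusted p = 3.56e-06, 8.92-fold lower). Its relatives ATG8F (-1.4 ± 0.10) and ATG8H (-1.19 ± 0.20) also fell and, like ATG8E, were higher in dark wounded than in light intact rosettes. The other 5 that fell were smaller changes, from -0.75 in ATG8D to -0.61 in APG8A. None of these 5 was called in dark wounded minus light intact, so they are not among the transcripts higher in the dark. In light intact minus dark intact none of the 5 was called either (-0.25 in APG8H to -0.11 in APG8A). In light wounded minus light intact all 5 were called lower (-0.53 in ATG8D to -0.40 in ATG8C). ATG3, the enzyme that couples ATG8 to lipid, was among them: 8.35, 8.88 and 8.30 in light wounded against 9.0, 9.35 and 9.06 in dark intact rosettes (-0.63 ± 0.10, adjusted p = 0.00104). ATG8B (-0.36), ATG8G (-0.58, adjusted p = 0.0539) and AT3G61960 (-0.23) were not called. With the 25S covariate the calls of ATG8H, ATG8D, APG8A and APG8H were lost, at adjusted p between 0.0524 and 0.0978, and those of ATG3, ATG8D and APG8A were lost without the replicate block.

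In the early auxin list 2 genes were tested. WES1, which conjugates auxin to amino acids, read 4.88, 4.21 and 3.82 in light wounded rosettes, against 7.11, 8.05 and 7.29 in dark intact ones (-3.18 ± 0.29, adjusted p = 3.75e-05). It was higher in dark wounded than in light intact rosettes (1.52 ± 0.29). Its relative GH3.3 was not called (-0.34, 95% interval -0.95 to 0.27).

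**Figure D4:**
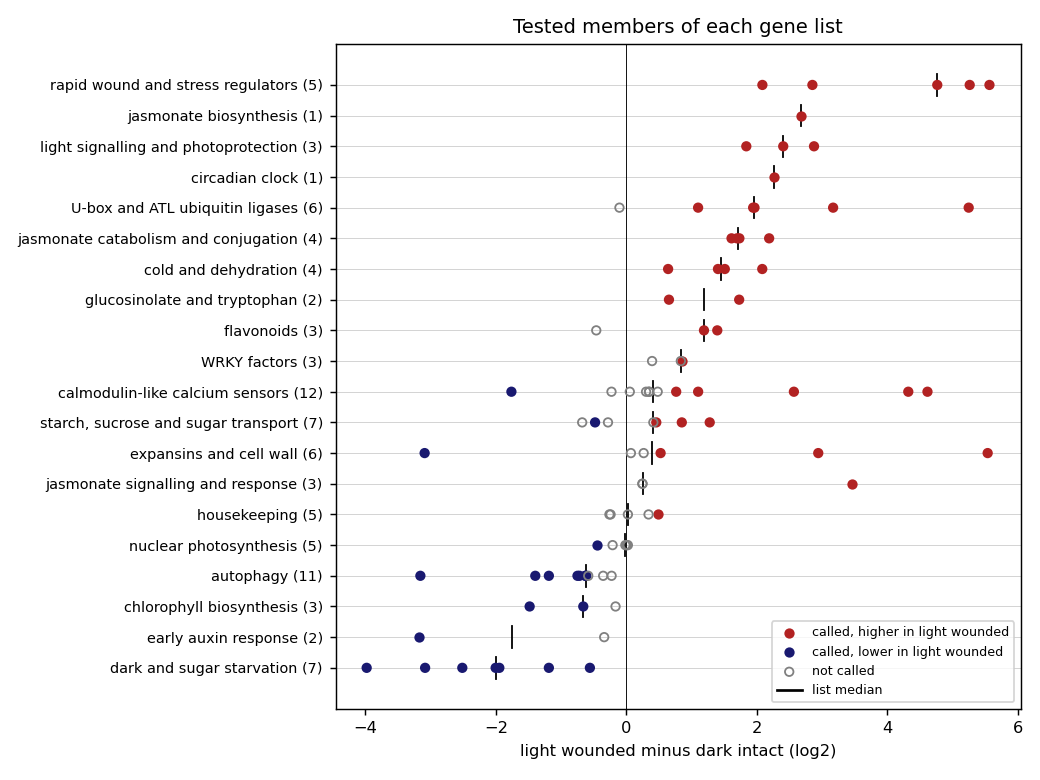
Light wounded minus dark intact (log2) is shown for every tested member of each gene list, with the number tested in brackets, filled dots for called genes (red higher, blue lower in light wounded rosettes), open dots for genes not called, and a bar at the list's median. The dark and sugar starvation and autophagy lists lie below 0 and the rapid regulators lie highest, with a median of 4.77.

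Some transcripts differed strongly between light wounded and dark intact rosettes and little between the other groups. These were called here with a difference of at least 2-fold, while the 95% interval of dark wounded minus light intact lay within 2-fold either way, a class defined after values were seen. It overlaps the classes above, because a difference under 2-fold can still be called. There were 563 such probe sets, 188 higher and 375 lower. AT3G23880 was the largest fall among them: dark wounded and light intact rosettes read 6.14, 6.87 and 7.22 against 5.83, 7.08 and 6.65, and the difference between them was 0.22 ± 0.20. Its 4 group means thus stood in 3 steps, 3.70 in light wounded, 8.09 in dark intact, and 6.75 and 6.52 in dark wounded and light intact rosettes. AT5G15240 was the largest rise among named genes, at 7.0, 6.85 and 6.30 in light wounded against 2.28, 2.22 and 2.25 in dark intact rosettes (4.47 ± 0.21, at least 6.57-fold), with dark wounded at 3.55 to 4.12 and light intact at 3.6 to 4.73. 

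By arithmetic, the difference of any probe set is the sum of a wound difference in the light and a light difference without a wound. These parts share arrays with it and are given only side by side. In AT3G23880 these were -2.82 ± 0.20 (light wounded minus light intact) and -1.57 ± 0.20 (light intact minus dark intact). In AT5G15240 they were 2.68 ± 0.21 and 1.79 ± 0.21. 4CL8, a relative of the 4-coumarate CoA ligases, rose by 3.28 ± 0.30 here with 2.25 and 1.03 as its parts, and AT2G04400 of the glucosinolate and tryptophan list by 1.73 ± 0.16 with 0.88 and 0.85. The dark intact mean of 4CL8 (3.73) lay below log2 4, and its light intact arrays were far apart, at 6.32, 4.69 and 3.28. HAT2, a homeodomain factor of auxin response, fell by 2.72 ± 0.12 (-1.46 and -1.26), and CCL by 3.02 ± 0.14 (-1.57 and -1.45). CCL was also called in dark wounded minus light intact (0.55 ± 0.14, adjusted p = 0.00836), so it counts among the transcripts higher in the dark as well. AT3G62550, the largest fall among the named genes, was near this pattern at -2.59 and -2.43, but its interval in dark wounded minus light intact (0.68 ± 0.25, adjusted p = 0.0447) reached 1.23.

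Other transcripts stood at like levels in light wounded and dark intact rosettes and apart in the other groups. These were called in dark wounded minus light intact with a difference of at least 2-fold, while the 95% interval of light wounded minus dark intact lay within 2-fold either way. They numbered 699 probe sets, 365 with a named gene, of which 297 were higher and 402 lower in dark wounded than in light intact rosettes. That interval lay within 2-fold for 70.1% of all tested probe sets. AT4G28085 read 8.81, 9.86 and 9.30 in light wounded and 8.73, 10.09 and 9.64 in dark intact rosettes (-0.17, 95% interval -0.68 to 0.35), and 10.27, 11.39 and 11.17 in dark wounded against 6.15, 6.32 and 7.01 in light intact rosettes (4.45 ± 0.23). The dark wounded arrays were the highest and the light intact arrays the lowest, with the other groups between them and overlapping. Its parts were 2.83 (light wounded minus light intact) and -3.0 (light intact minus dark intact).

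The other genes taken from the upper side were AT2G01300 (4.01 in dark wounded minus light intact and 0.06 in light wounded minus dark intact), AT5G10695 (3.76 and 0.12), AT1G07135 (3.6 and -0.14) and AT5G11070 (3.55 and 0.31). On the lower side AT3G01660 read 6.16, 6.42 and 6.78 in light wounded and 6.38, 6.59 and 6.15 in dark intact rosettes (0.08, 95% interval -0.46 to 0.62), against 4.35, 4.58 and 5.25 in dark wounded and 7.28, 8.31 and 7.98 in light intact rosettes (-3.13 ± 0.24). AT3G17640 (-3.13), AT2G39920 (-2.94), AT4G34950 (-2.93) and AT4G30400 (-2.92) followed in dark wounded minus light intact. In AT3G17640, AT2G39920 and AT4G30400 the means of light wounded, dark intact and dark wounded rosettes all lay below log2 4. Their like levels are therefore limited by background. AT3G17640 and AT4G30400 passed the brightness filter only through light intact arrays. MYC4 belonged to this side as well, with means of 7.69 in light wounded, 7.44 in dark intact, 6.60 in dark wounded and 9.0 in light intact rosettes. So did the expansins EXPB1 (-2.41 in dark wounded minus light intact) and EXPA4 (-1.14) and the sugar transporter SWEET1 (-1.58), while GH3.3 (2.31) and the calmodulin-like CML42 (1.73) were on the upper side.

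WRKY22, an immune transcription factor, was close to this pattern without meeting the interval. It read 8.83, 8.57 and 8.74 in light wounded rosettes, against 6.88, 8.57 and 8.18 in dark intact ones (0.84 ± 0.35, adjusted p = 0.0808, 95% interval 0.06 to 1.61). Dark wounded arrays were at 9.54, 9.93 and 9.98 and light intact arrays at 4.71, 4.12 and 4.47 (5.39 ± 0.35). Without dark intact replicate 2 the first difference was 1.24 and was called (adjusted p = 0.0179).

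Photosynthesis and housekeeping genes were called in 1 of 5 tested cases each, where 41.8% of all tested probe sets were called. The photosynthesis gene was LHCB4.2, at 14.37, 14.35 and 14.19 in light wounded against 14.81, 14.83 and 14.61 in dark intact rosettes (-0.45 ± 0.09, adjusted p = 0.00445), and it was lost without experiment 1 (adjusted p = 0.0627) and with the 25S covariate (adjusted p = 0.238). RCA (0.02, 95% interval -0.18 to 0.23) and PSAE-1 (-0.02, -0.25 to 0.22) were not called. CHLM, of chlorophyll synthesis, fell by 0.66 ± 0.10 and was lost with the 25S covariate (adjusted p = 0.0601). The housekeeping gene was the tubulin TUB9 (0.48 ± 0.12), whose call was lost without experiment 1 (adjusted p = 0.131) and with the 25S covariate (adjusted p = 0.168).

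Starch and sugar transport genes split. APL3, a subunit of the starch-making ADP-glucose pyrophosphorylase, rose by 0.85 ± 0.17 on arrays that overlapped, 8.22, 8.43 and 7.02 in light wounded against 7.15, 7.62 and 6.35 in dark intact rosettes, with a higher light wounded value in each experiment. Its call was lost without the replicate block (adjusted p = 0.25) and with the 25S covariate (adjusted p = 0.0652). Of the SWEET sugar transporters, SWEET16 (1.28 ± 0.38, adjusted p = 0.0222) and SWEET17 (0.46 ± 0.13) were called higher and SWEET2 (-0.48 ± 0.13) lower. SWEET16 differed by 1.86, 2.12 and -0.14 in experiments 1, 2 and 3, and its call was lost when any of 4 arrays was left out (adjusted p up to 0.103). The calls of SWEET17 and SWEET2 were lost without 3 and 2 single arrays (adjusted p up to 0.0778 and 0.0643). BCAT4 of glucosinolate synthesis (0.65 ± 0.23, adjusted p = 0.0448), the cell wall expansin EXPB3 (0.52 ± 0.18, adjusted p = 0.0380) and PYK10 (1.02 ± 0.36, adjusted p = 0.0436) were called but lost their calls without 8, 8 and 6 single arrays and with the 25S covariate.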

How the data were processed

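Per the submitters' processing notes, the authors made the deposited log2 values with GCRMA, with no version given, as 1 value per probe set and array. Nothing further was normalized here. Groups came from the sample titles (dark wounded replicate 2 is otherwise described only by an abbreviation). R 4.3.3 and limma 3.58.1 fitted 4 group means to all 12 arrays with replicate number as a block, since each of the 3 replicate experiments held all 4 treatments. Deviations of same-numbered arrays correlated at 0.296 to 0.757 over 18 pairs. Calls used a two-sided Benjamini-Hochberg adjusted p under 0.05 over 13567 probe sets. The p-values measure the spread between pooled extracts that is left after the replicate block, taken over all 4 groups. The number of arrays limits the precision: the median standard error was 0.15. Probe sets were named through the platform annotation: 7275 of the tested ones had 1 gene, 292 several and 6000 none, and the brightest probe set stood for a gene. Genes were named by rule: the 12 largest rises and falls without overlap, 6 for each class, 10 with like levels, and 3 for each list. Others, including the remaining list members, were named after their values were seen. Members, classes and lists were chosen with earlier results of these data known. The fit was tested on simulated data. Alternatives changed the block, arrays, filter, scaling and variance model, or left out single arrays.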

Additional observations from a re-analysis of the deposited data

How the results depend on the processing

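None of the 5671 called differences changed sign under an alternative that tested it, whereas small differences that were not called did so in places. The sign could not change where only the block, the filter or the variance model was altered. Nor could it change with only the 6 arrays of each comparison, or with an array of another group left out. In those settings the difference itself stays the same, so kept signs there say nothing about stability. Where the reported fit made 5671 calls (2642 higher, 3029 lower), the fit without the replicate block made 3546 (1561 and 1985), the 25S covariate 2046 (916 and 1130), and leaving out experiment 1 made 3595 (1727 and 1868), the covariate and the omission of that experiment being chosen after seeing the data. Probe sets higher in both comparisons became 378 with the covariate. Those lower in both became 144 without the block, 200 with only the 6 arrays of each comparison, 110 with the covariate and 165 without experiment 1. Those higher in the light became 503, 809, 346 and 737 under the same 4 settings. Those higher in the dark became 588 without the block and 562 with the covariate, and those at like levels 359 with the covariate. Leaving out single arrays gave 4469 to 5718 calls (2080 to 2688 higher, 2380 to 3030 lower), and 5341 to 6822 in dark wounded minus light intact. Classes then held 647 to 789 (higher in both), 257 to 334 (lower in both), 955 to 1189 (higher in light), 756 to 985 (higher in dark) and 604 to 788 (like levels). The other settings kept these counts within 1.5 times. Of 219 called genes followed, 110 kept their call under every alternative run. The cause was not tested, beyond the fewer samples in some settings. Values near log2 4 are limited by background.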

Other observations

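Genes in this part were named after their values were seen, and no test was made of families. Over all named genes 18.5% were called higher and 23.2% lower, with a median of -0.04. The xyloglucan-modifying XTH enzymes of the cell wall had 4 of 5 tested members called higher in light wounded than in dark intact rosettes, with XTH19 at 2.61 and XTH18 at 2.55. The UGT glycosyltransferases were split, with 10 of 27 higher and 10 lower: UGT76E12 stood at 3.54 and UGT76E1 at 2.49, against -2.38 for UGT73B1 and -1.51 for UGT72E1. Cytochrome P450 genes (CYP) were lower in 6 of 14 cases, among them CYP71B29 (-2.10), and higher in 1, CYP71B26 (1.13).

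The glucosinolate transporter GTR1 read 12.63, 12.44 and 11.99 in light wounded rosettes, against 9.07, 9.62 and 8.75 in dark intact ones (3.21 ± 0.18), and its relative GTR2 was higher by 1.56. HEMA2, a glutamyl-tRNA reductase of tetrapyrrole synthesis, was higher by 1.79, and NDB2, a mitochondrial NAD(P)H dehydrogenase, by 2.01. SDP1, a triacylglycerol lipase, was lower (-1.80), as were the methionine-degrading enzyme MGL (-1.29) and ETFQO (-1.24), which passes electrons from amino acid breakdown to ubiquinone. With the 25S covariate the calls of GTR2 (adjusted p = 0.0645), HEMA2 (adjusted p = 0.072), ETFQO (adjusted p = 0.156), UGT76E1 (adjusted p = 0.0712) and CYP71B26 (adjusted p = 0.103) were lost. Without experiment 1 those of ETFQO (adjusted p = 0.0558) and UGT76E1 (adjusted p = 0.0637) were lost, and without the replicate block that of CYP71B26 (adjusted p = 0.14).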
